A study of Saccharomyces cerevisiae with 4 samples.

Results

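The nuclear tRNA genes described here are those with an annotated span, from the first to the last base of the gene, of at least 86 bp. The RefSeq gene table of the R64 assembly of budding yeast lists 275 nuclear tRNA genes, and 61 of them meet this rule. The other 214 are shorter. The rule falls in a gap: the shortest of the 61 genes spans 89 bp, the longest of the others spans 84 bp, and no nuclear tRNA gene lies between. Spans of this length are those of tRNA genes that carry an intron, but the table has no intron features, so the presence of an intron was not checked gene by gene. A further 2 mitochondrial tRNA genes reach the span and were left out by the rule.

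The study mapped Acs2, an enzyme that makes acetyl-CoA from acetate, by chromatin immunoprecipitation and sequencing. A strain labelled Acs2-FLAG and an untagged strain were both grown in YPD with 2% glucose at 28 °C and crosslinked with 1% formaldehyde. Each strain gave an input library, made with no antibody, and an immunoprecipitate with the FLAG M2 antibody, so that 4 groups of 1 library each exist and no value has a replicate error. The labels give no other allele, tag position or strain background. Fold enrichment is the authors' value at the summit of a peak, read here as a ratio of fragments in the immunoprecipitate to the local background in the input; the file headers name both libraries without saying which served as background. The 95% intervals printed after a fold cover the counting of fragments only. They do not say how much a second culture would differ, and no test between the strains or between sets of genes was possible.

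Transfer RNA genes are transcribed by RNA polymerase III. Their promoter lies inside the gene, in the A box near the start and the B box near the end of the mature tRNA sequence, which TFIIIC binds before it places TFIIIB upstream of the start. Where a yeast tRNA gene has an intron, it lies just after the anticodon, between the A box and the B box, so the intron moves the boxes apart. The intron is cut out by the SEN endonuclease, and the tRNA ends are joined by the ligase Trl1. Some of the genes carry names from suppressor genetics. SUP2, SUP3, SUP4, SUP5, SUP6, SUP7, SUP8 and SUP11 encode tyrosine tRNA, SUP53, SUP54 and SUP56 leucine tRNA, SUP61 serine tRNA, and SUF7, SUF8, SUF9, SUF11 and TRN1 proline tRNA. These are 17 of the 61 genes. The other 44 have only a systematic name in the table, which does not give their amino acid, and they are grouped here by span alone.

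An Acs2-FLAG peak met 60 of the 61 long-span genes (98.4%, exact Clopper-Pearson interval 91.2 to 99.96), with at least 1 bp shared. The same held for 98.1% of the shorter tRNA genes (210 of 214, interval 95.3 to 99.5). Among all 6431 annotated nuclear genes the percentage met by an Acs2-FLAG peak was 18.4, and among protein-coding genes it was 13.5. No untagged peak met any of the 61 genes, a count of 0 that allows a share of up to 4.92% (3 counts of 61), against 0.653% of all nuclear genes. The shortest distance from any of them to an untagged peak was 3740 bp, at YNCG0042C. At the lowest local background of the untagged library, a fold below 1.26 would not have reached the weakest call of its list. A weaker untagged signal at such a background was thus not detectable. The untagged background at these genes was not determined, so the limit there is not known.

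The long-span gene without a peak was SUP53, a leucine tRNA gene (chromosome III, 90859 to 90972, plus strand, 114 bp). Its nearest protein-coding gene is LEU2, which encodes an enzyme of leucine synthesis, at 352 bp. The nearest Acs2-FLAG peak, with a fold of 2.70 (2.52 to 2.90), lay 7905 bp away. The 4 shorter tRNA genes without a peak were YNCC0008W and YNCC0009C, also on chromosome III, YNCL0009C and YNCN0008C. Their nearest peaks were 289 to 2865 bp away. Input reads were not examined at SUP53 or at these 4 genes. A lack of Acs2 there cannot be told apart from a lack of placed reads. The other long-span leucine genes of known name had strong peaks. SUP54 (chromosome VII, 423092 to 423205) had a fold of 4.15 (3.93 to 4.37) and SUP56 (chromosome I, 181141 to 181254) a fold of 3.56 (3.36 to 3.77).

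The folds of the 60 genes with a peak ran from 2.47 to 4.56, with a median of 3.56 and quartiles of 3.32 and 3.97. The 210 shorter genes had a median of 3.12, quartiles of 2.83 and 3.34 and a range of 1.75 to 4.49. The medians differed by 0.44, a ratio of 1.14. The 2 distributions overlapped widely. The fold exceeded the shorter-gene median at 51 of the 60 long-span genes. The whole counting interval lay above that median at 44 and below it at 4. From the other side, 17 of 210 shorter genes had a whole interval above the long-span median.

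The upper quartile of all 270 folds at tRNA genes was 3.53. It was reached by 34 of the 60 long-span genes (56.7%) and by 34 of the 210 shorter ones (16.2%), against 25.2% of all tRNA genes with a peak. At or under the lower quartile of 2.90 were 3 long-span genes (5%) and 65 shorter ones (31.0%). Of the 20 highest folds at tRNA genes, 14 belonged to long-span genes. The local background under the summits was nearly the same in both sets, with medians of 313.9 and 314.1 fragments per base. It was within 0.02% of the library minimum, 291.1, at 7 of the 60 long-span genes (11.7%) and 27 of the 210 shorter ones (12.9%). At those genes it stands for library depth and not for the input at the gene. The number of fragments at the summit had medians of 1127 and 977.5. Most of these genes have copies of near-identical sequence elsewhere in the genome, and no source states how reads with several placements were treated. A value at 1 copy is therefore uncertain, and the part of such reads in the difference between the sets was not tested.

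**Figure D1:**
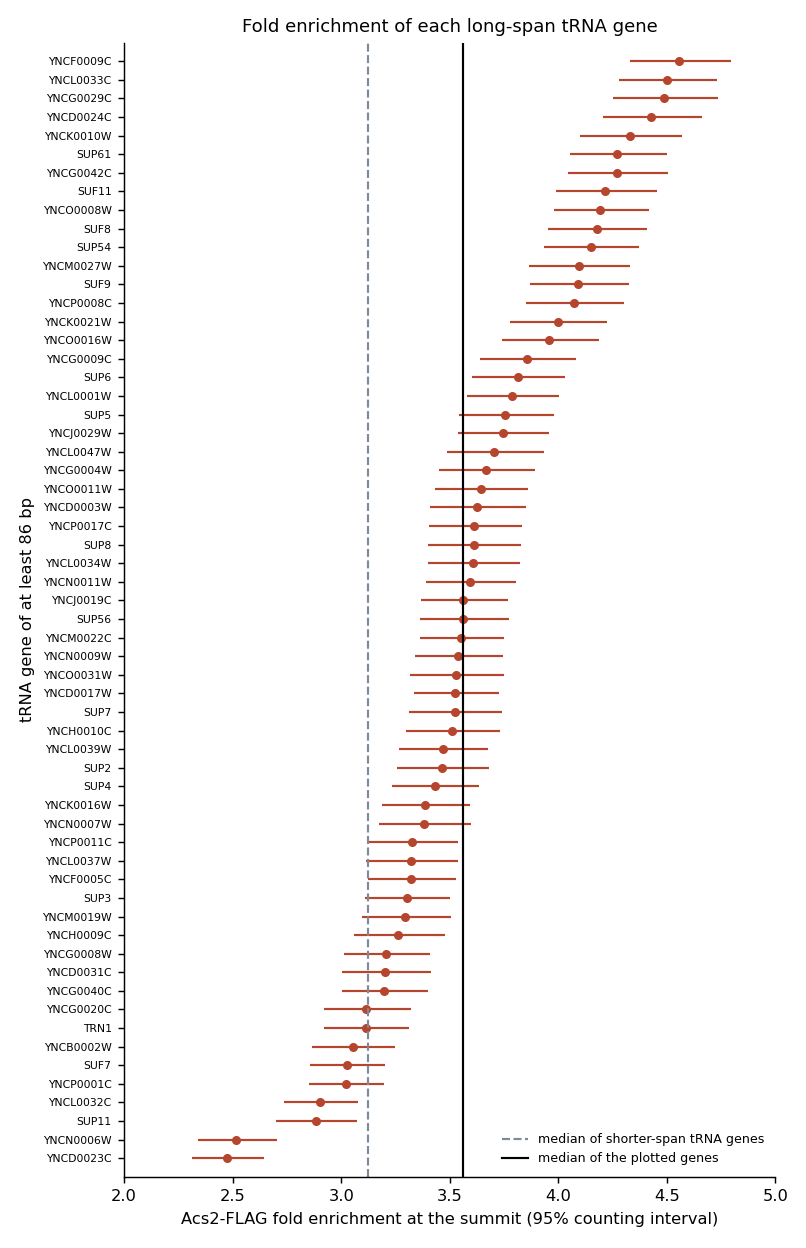
Acs2-FLAG fold enrichment at the summit (x axis, a ratio) for each of the 60 long-span tRNA genes with a peak (y axis, ranked by fold). Points are the authors' folds, bars the 95% counting intervals, the solid line the median of these genes (3.56) and the dashed line the median of the shorter tRNA genes (3.12); 44 bars lie wholly above the dashed line and 4 wholly below.

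The highest fold was at YNCF0009C (chromosome VI, 191513 to 191613, 101 bp), with 4.56 (4.33 to 4.79). YNCL0033C (chromosome XII, 605300 to 605432), 1 of the 2 longest genes at 133 bp, followed with 4.50 (4.28 to 4.73). YNCG0029C had 4.49, from a peak that it shares with the shorter gene YNCG0028W. Then came YNCD0024C with 4.43 (4.20 to 4.66) and YNCK0010W with 4.33 (4.10 to 4.57). SUP61, the serine tRNA gene, had 4.27 (4.05 to 4.50), and YNCG0042C had the same value after rounding. SUF11 with 4.22, YNCO0008W with 4.19 and SUF8 with 4.18 complete the 10 highest. Neighbours in this order did not lie apart in their counting intervals, and all 10 intervals lay above the long-span median.

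The lowest fold was at YNCD0023C (chromosome IV, 1095370 to 1095461, 92 bp), with 2.47 (2.31 to 2.64), followed by YNCN0006W (chromosome XIV, 374869 to 374959, 91 bp) with 2.52 (2.34 to 2.70). These intervals overlapped each other. Of the other 58 genes, SUP11 alone had an interval that met either of them, with a fold of 2.88 (2.70 to 3.07). The rest of the 10 lowest were YNCL0032C with 2.90, YNCP0001C with 3.02, SUF7 with 3.03, YNCB0002W with 3.05, TRN1 with 3.11, YNCG0020C with 3.12 and YNCG0040C with 3.20. The median local background was similar at both ends, 324.1 fragments per base at the 10 lowest genes and 321.5 at the 10 highest. It was 307.6 at the other 40. Spearman's rho between background and fold was -0.04 over the 60 genes. A background above 350 occurred at 4 of the 10 lowest genes, at none of the 10 highest and at 2 of the other 40. SUF7 had 1221 fragments at its summit over the highest background of all 60, 402.9. YNCN0006W had the fewest fragments, 734, over the library minimum of 291.1. The part of the background in the low folds was not tested.

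The 8 tyrosine tRNA genes, all of 89 bp, had folds from 2.88 to 3.81 with a median of 3.49. SUP6 had 3.81 (3.60 to 4.03), SUP5 3.76 (3.54 to 3.98) and SUP8 3.61 (3.40 to 3.83). SUP7 had 3.52 (3.31 to 3.74), SUP2 3.47 (3.26 to 3.68), SUP4 3.43 (3.23 to 3.64) and SUP3 3.30 (3.11 to 3.50). SUP11 stood below the other tyrosine genes with 2.88 (2.70 to 3.07), and its interval met none of theirs. Of the 28 pairs among the 8 genes, 9 had intervals that lay apart. The lowest and highest folds differed 1.32-fold.

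The 5 named long-span proline tRNA genes spread further. SUF11 had 4.22 (3.99 to 4.45), SUF8 4.18 (3.95 to 4.41) and SUF9 4.09 (3.87 to 4.32). TRN1 had 3.11 (2.92 to 3.31) and SUF7 3.03 (2.86 to 3.20). The 3 higher intervals overlapped each other, as did the 2 lower ones, and the 2 sets lay apart. Over all spans, 149 pairs of long-span genes had the same span, and in 77 of them (51.7%) the intervals lay apart. Among all 1770 pairs of the 60 genes the percentage was 54.0. Genes of the same span thus differed from each other in this library about as often as any pair of the set. Both counts include YNCG0029C, whose fold comes from a peak shared with a shorter gene. At 96 bp, 6 of the 21 pairs lay apart, and each of them includes YNCG0029C.

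The genes without a classical name can be read in the same way by span. Among the 8 genes of 114 bp, SUP54 with 4.15 and YNCM0027W with 4.09 (3.87 to 4.33) lay above the rest. The next were SUP56 with 3.56, YNCK0016W and YNCN0007W, both with 3.38, YNCG0008W with 3.21 and YNCG0040C with 3.20. The intervals of these 5 all overlapped, those of the upper 2 stood clear of them, and SUP53 had no peak. The 6 genes of 101 bp spread widely. YNCF0009C, SUP61 and YNCO0008W were at 4.19 or above, YNCJ0029W had 3.74 (3.54 to 3.96), YNCL0037W 3.32 (3.12 to 3.54) and YNCL0032C 2.90 (2.74 to 3.08). In 12 of their 15 pairs the intervals lay apart.

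At 96 bp the genes were closer together. Leaving aside YNCG0029C, the folds were 3.997 (3.78 to 4.22) at YNCK0021W, 3.96 at YNCO0016W, 3.70 at YNCL0047W, 3.67 at YNCG0004W, 3.63 at YNCD0003W and 3.61 (3.40 to 3.83) at YNCP0017C, and all 6 intervals overlapped. At 106 bp, YNCK0010W with 4.33, YNCG0042C with 4.27 and YNCG0009C with 3.85 (3.64 to 4.08) were highest. YNCJ0019C had 3.56 and YNCM0022C 3.55, and YNCP0001C with 3.02 (2.85 to 3.20) lay clear below the other 5. At 92 bp an outlying gene stood at each end. YNCP0008C had 4.07 (3.85 to 4.30) and YNCD0023C 2.47 (2.31 to 2.64), and the 5 genes between them ran from 3.12 at YNCG0020C to 3.51 (3.30 to 3.73) at YNCH0010C.

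Within the long-span genes the fold did not climb steadily with span. The median was 3.49 at 89 bp (8 genes), 3.28 at 91 and 92 bp (10 genes) and 3.70 at 96 bp (7 genes). It was 3.74 from 100 to 103 bp (17 genes), 3.56 at 105 and 106 bp (7 genes) and 3.38 at 114 and 115 bp (9 genes with a peak). The 2 genes of 133 bp had folds of 4.50 at YNCL0033C and 3.53 (3.33 to 3.73) at YNCD0017W. All 7 genes of 96 bp were at or above 3.61, the highest floor of any span with more than 2 genes. On the other side of the gap, the 22 genes of 82 to 84 bp had a median of 3.14 and the 188 genes of 71 to 74 bp with a peak a median of 3.12. Across the 270 genes, Pearson's r between span and fold was 0.41 and Spearman's rho 0.21, and within the 60 long-span genes they were 0.23 and 0.19. All points come from 1 library and many are copies of each other.

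**Figure D2:**
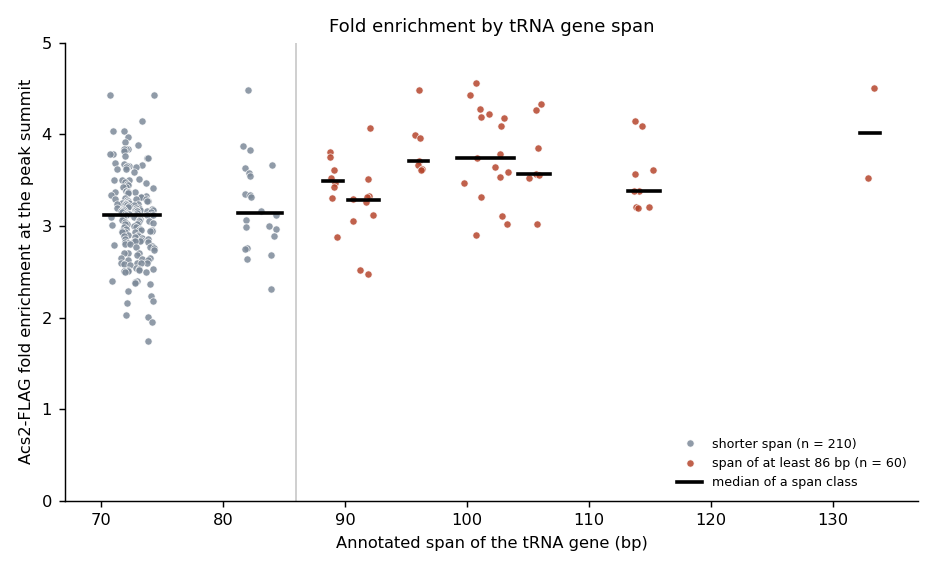
Acs2-FLAG fold enrichment at the summit (y axis, a ratio) against the annotated span of each tRNA gene (x axis, bp) for 60 long-span genes and 210 shorter ones, with points spread slightly sideways. Horizontal bars are medians of span classes, which lie at 3.12 and 3.14 left of the vertical line at 86 bp and between 3.28 and 4.01 right of it.

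The summit lay inside the gene at 59 of the 60 long-span genes and at 198 of the 210 shorter ones. Positions were read along the direction of transcription, with 0 at the first base of the gene. The summit of the long-span genes lay at a median of 40 bp from the start (quartiles 32.75 and 49.25) and that of the shorter genes at 28 bp (18.25 and 36). Measured from the last base, the medians were -59 and -45 bp. The summit was thus 12 bp further from the start and 14 bp further from the end in the longer genes. Relative to gene length, the median position was 0.392 of the span in the long-span genes and 0.383 in the shorter ones. In both sets most summits lay on the 5′ side of the midpoint, 47 of 60 and 159 of 210. Against the midpoint itself, the medians were -10.5 and -8.5 bp.

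By span, the median distance from the start was 27 bp at 71 to 74 bp and 36 bp at 82 to 84 bp, so the shorter genes with the longer span already had a summit further in. It was 39 bp at 89 bp, 33.5 bp at 91 and 92 bp and 37 bp at 96 bp. It was 40 bp from 100 to 103 bp, 31 bp at 105 and 106 bp and 48 bp at 114 and 115 bp. The longest genes had 83 bp at YNCL0033C and 50 bp at YNCD0017W. Among genes that alone occupy their peak, the quartiles of this distance were 16 bp apart in both sets. The files give a summit as 1 base without an error.

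**Figure D3:**
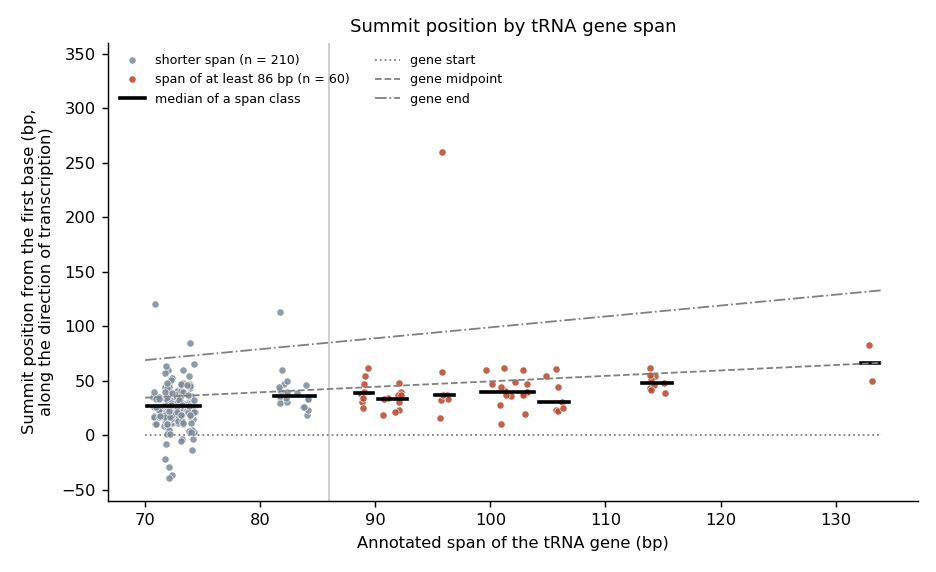
Position of the Acs2-FLAG summit from the first base of the tRNA gene (y axis, bp along the direction of transcription) against annotated span (x axis, bp) for 60 long-span and 210 shorter genes; grey lines mark the gene start, midpoint and end. The class medians, drawn as bars, are 27 bp in the shortest class and 66.5 bp in the longest, which holds only 2 genes. They do not rise steadily in between. The long-span point at 260 bp is YNCG0029C.

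The exception was YNCG0029C (chromosome VII, 700953 to 701048, minus strand). Its peak, 917 bp wide, also covers YNCG0028W (chromosome VII, 700675 to 700756, plus strand), which spans 82 bp. The summit at 700788 lay between the genes, closer to YNCG0028W, so the fold of 4.49 cannot be assigned to either. It was the only long-span gene whose peak met another tRNA gene. Among the shorter genes this was so for 11. Without the genes in shared peaks the long-span median fold was 3.56 and the shorter one 3.09.

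The summit distances of the tyrosine genes ran from 25 bp at SUP3 to 62 bp at SUP11. The named long-span proline genes ran from 20 bp at SUF8 to 60 bp at SUF9. Among the tyrosine genes the quartiles of the distance were 15.5 bp apart, and among all 60 long-span genes 16.5 bp. The summit closest to the start was at YNCL0037W (chromosome XII, 732090 to 732190), at 10 bp. That peak ended 59 bp after the gene, the shortest downstream reach of the 60. The annotated gene YLR302C directly adjoins YNCL0037W, with no base between them.

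The peaks at long-span genes had a median width of 540 bp (quartiles 505.25 and 590.25), and those at shorter genes 506 bp (461.25 and 560.75). The medians of width differed by 34 bp and the medians of span by 28 bp. Beyond the gene, the peak reached a median of 217.5 bp upstream and 209 bp downstream at long-span genes, and 216 and 202.5 bp at shorter genes. Peaks with higher folds were also wider. The 270 genes were therefore split at the quartiles of the fold. Among genes with a fold from 3.18 to 3.53 the widths were 514 bp at 17 long-span and 516.5 bp at 50 shorter genes. From 3.53 upward they were 552 bp and 559.5 bp, at 34 genes each. In the 2 lower ranges, with only 3 and 6 long-span genes, the medians were 426 and 600.5 bp against 458 and 493 bp. In the 2 upper ranges the median width was thus not larger at the long-span genes. The summit stayed further from the start in each of the 4 ranges, by medians of 37 against 25 bp, 35 against 30 bp, 42 against 28.5 bp and 40.5 against 31.5 bp.

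Peaks wider than 800 bp occurred at 8 of the 60 long-span genes (13.3%, exact interval 5.94 to 24.6) and 16 of the 210 shorter ones (7.62%, 4.42 to 12.1), with overlapping intervals. The widest, 2617 bp, was at the proline gene TRN1 (chromosome I, 139152 to 139254). It reached 2303 bp downstream, over SSA1, which encodes an Hsp70 chaperone, while its upstream reach of 211 bp was ordinary. SUP61 (chromosome III, 227942 to 228042) followed with 1082 bp, reaching 748 bp downstream over BUD31. YNCO0008W (chromosome XV, 274673 to 274773) had 1067 bp and reached 755 bp upstream, and its peak met LAG2 and MIM1. The summits of all 3 lay inside the tRNA gene. Among the other wide peaks, that of YNCL0047W (978 bp) met SEC61, a gene for the channel of protein translocation into the endoplasmic reticulum, and that of SUF9 (860 bp) met LPD1, for a subunit of mitochondrial dehydrogenase complexes. YNCP0001C (852 bp) met YPL257W-A and YPL257W-B, retrotransposon Ty genes. Not every wide peak met a protein-coding gene. That of YNCP0011C (884 bp) reached 590 bp upstream and met no other annotated gene, and that of YNCG0029C (917 bp) met only YNCG0028W.

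**Figure D4:**
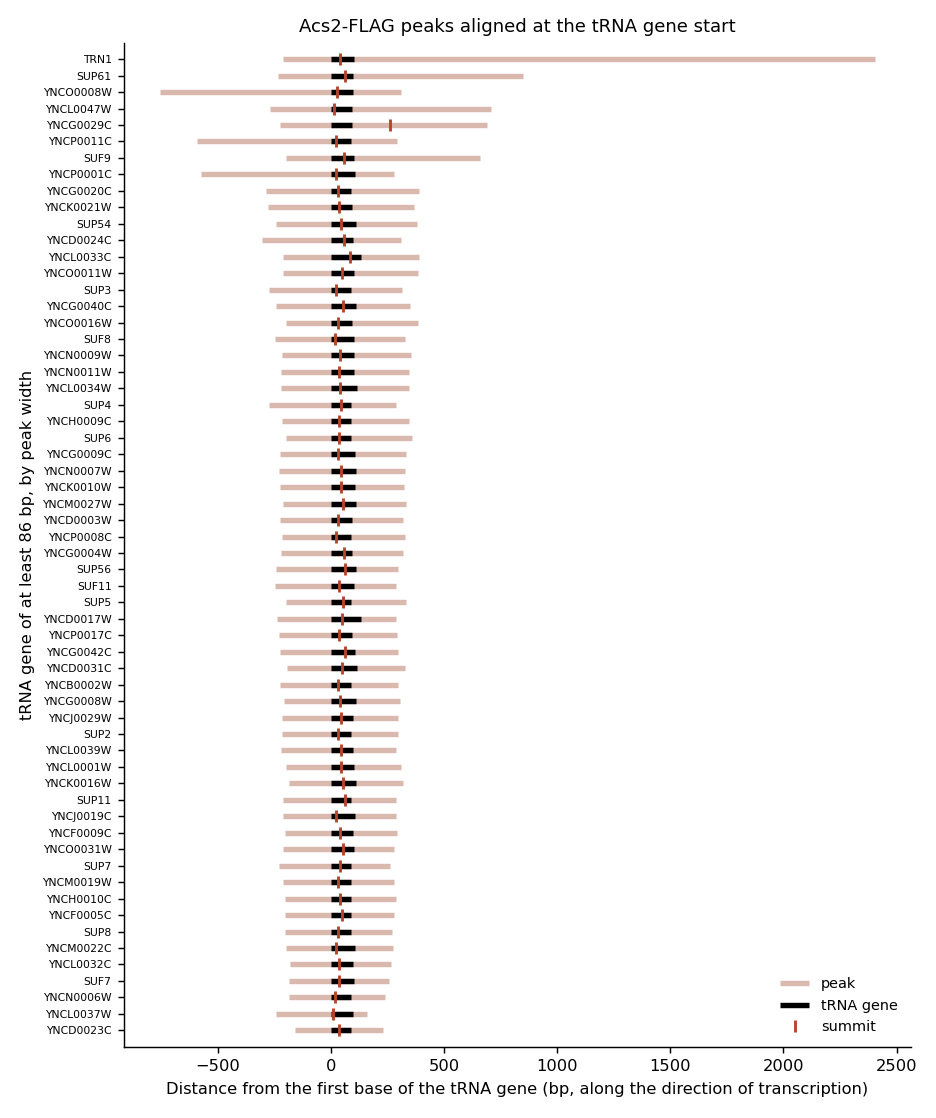
Extent of the Acs2-FLAG peak (pale bars), the tRNA gene (black) and the summit (red tick) for the 60 long-span genes, aligned at the first base of the gene (x axis, bp along the direction of transcription) and ordered by peak width (y axis). Most peaks reach about as far upstream (median 217.5 bp) as downstream (median 209 bp), and the peak at TRN1 reaches 2303 bp downstream.

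In all, 27 of the 60 peaks (45%) met a protein-coding gene and at most 2 each. The same count was not made for the shorter tRNA genes or for all peaks, so this share has no comparison. The median distance from the tRNA gene to the nearest protein-coding gene was 258.5 bp, and 2 of the tRNA genes, YNCN0009W and SUF11, overlap one (YNL042W-B and YOR072W-B).

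For the genes whose products make, process and export tRNA, the count depended on the region examined. Of 51 listed genes, 1 had an Acs2-FLAG peak in its annotated span (1.96%, exact interval 0.0496 to 10.4), against 13.5% of all protein-coding genes. With 500 bp upstream of the start added, 6 of 51 had one (11.8%), against 20.6% of all protein-coding genes. These were SEN2 with 1.76 (1.62 to 1.92) and SEN15 with 1.45, which encode subunits of the splicing endonuclease, RPB8 with 1.70 and RPC17 with 2.68, for polymerase subunits, LHP1 with 1.25, for the La protein that binds new tRNA transcripts, and RPR2. The RPC17 peak also covers the shorter tRNA gene YNCJ0018W. With either region, none of the 6 genes for TFIIIC, the 3 for TFIIIB or the 6 for export, among them LOS1, had a peak. RPR2, which encodes a protein subunit of RNase P, had the peak inside the annotated span, with a fold of 1.28 (1.17 to 1.40), lower than at any long-span tRNA gene. The single-copy RNA polymerase III genes examined, none of them a tRNA gene, fell partly within the range of the long-span tRNA genes. SNR52 had a fold of 3.89 and SNR6 2.93, both inside it, while SCR1 with 4.67 (4.46 to 4.89) stood above and RPR1 with 2.33 (2.17 to 2.50) below it, with intervals that overlapped those of the end members YNCF0009C and YNCD0023C.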

How the data were processed

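The submitters' processing notes list Trimmomatic, BWA, Picard and MACS2, with R64 as the build, and no settings or read totals. The 2 deposited peak lists each cover 1 library and, per the file headers, set it beside the input of its strain. They are narrowPeak files with the authors' fold enrichment ratio, −log10 p, −log10 q and a score, which was not used. The headers do not state the direction; the lists were read as immunoprecipitate over input.

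Chromosome accessions were translated to numbers, checked on tRNA genes: under its own name each chromosome had 70% or more met by a peak, and under any other at most 30.8%. Strand came from the systematic name. Each gene took the strongest peak sharing at least 1 bp. The fold and p of a summit were solved for its fragment count and local background. Counts were whole within 0.05 at 907 of 912 Acs2-FLAG and 30 of 34 untagged peaks. The lowest background, 291.1 and 198.4 fragments per base, stands for depth. Exact Poisson intervals (95%) of the count were scaled to the fold with the background held fixed. Intervals and the limit of a count of 0 cover counting error only, and intervals of shares treat genes as independent. On simulated data, 100% of 275 counts and positions were recovered, by the same relations that made them.

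With 1 library per group no test was run. Genes named are those without a peak, the 10 highest and 10 lowest folds, the longest and shortest spans, the 3 widest peaks and those sharing a peak or with the summit outside. The others, the amino acid sets and the limits of 800 bp and 350 fragments were chosen after the values were seen. All genes and lists were chosen with earlier results of these data known. No DNA sequence was used. Work was done in Python 3.11.15 with scipy 1.17.1, numpy 2.4.6, pandas 2.3.3, mpmath 1.4.1 and matplotlib 3.10.9.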

Additional observations from a re-analysis of the deposited data

How the results depend on the processing

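The 13 main values (shares of genes with a peak, and medians of fold, width and summit position with their differences) were recomputed under other settings; the remaining values were not. The 7 combinations that needed a tRNA family for each gene were not run, since the gene table names no family. A −log10 q of at least 5 left all 13 values as they were. A −log10 q of at least 20 and a peak covering at least 0.5 of the gene were applied to 12 values and left them unchanged. The share of tRNA pathway genes was not recomputed under either. The lowest −log10 q at a tRNA gene was 29.4, so the q limits could remove none of these peaks and say nothing about stability. The informative settings were the summit inside the gene, spans of at least 90 against under 80 bp, and genes alone in their peak. Under these the difference in median fold stayed between 0.44 and 0.47, that in width between 35 and 38 bp and that in summit distance at 12 or 13 bp. With the summit required inside the gene, 92.5% of the shorter tRNA genes had a peak. With 500 bp upstream added, 11.8% of the tRNA pathway genes had one. No paired analysis was possible because each group has 1 library. The 34 untagged peaks and the lower background of that library limit what its list can show at tRNA genes.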
